A study of Sus scrofa with 6 samples.

Results

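Accessible chromatin of pig myotomes at embryonic day 28 (E28) was compared with that of pig somites at embryonic day 18 (E18), the widest interval of the single-cell ATAC-seq series. By their labels, 4 of the 6 samples entered the comparison: E18 somites and E28 myotomes of Tibetan pigs (ZZ) and of Duroc × Tibetan pigs (DZ). Each sample was a pool of 5 embryos from the same sow, so each stage held 1 pool per breed, and the p-values measure the spread between these pools after an additive breed term. Day and tissue changed together and cannot be told apart. The E21 somite samples of both breeds are given beside some results and entered no test of the main comparison.

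Somites are blocks of paraxial mesoderm that form along the trunk. Their ventral part, the sclerotome, yields vertebrae and ribs, and their dorsal part, the dermomyotome, yields dermis and muscle progenitors that carry PAX3 and PAX7. Cells that leave the dermomyotome form the myotome, where the myogenic regulatory factors MYF5, MYOD1, MYOG and MYF6 switch on muscle genes together with MEF2 proteins. Nucleosome-free promoters and enhancers of such genes are cut by the Tn5 transposase, and the density of cuts is the measure of accessibility used here.

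At E28, chromatin was more open than at E18 in intron or distal regions of NFIB, AUTS2, LAMB1, CDH11 and SPRY1, and over MYOG and CHRNA1. It was less open over KRT8, KRT18, MYBPC3, HES5, CDX1 and LIN28A, genes of epithelia, heart, neural progenitors and the early embryo. Of the early myogenic factors, MYF5 and MYOD1 already had peaks at E18, and no change in their windows passed the test. The sequences of 3 regions are shown first, chosen among the largest changes of regions with similar covered length and at least 5 CPM in the higher stage. The sequences come from the RefSeq Sscrofa11.1 assembly, plus strand, and are the central 200 bases of 3 regions that overlap no exon there. Capitals mark CATATG in the first, CAGCTG and AGGTCA (on the minus strand) in the second and AGGTCA in the third.
NFIB region, distal, chr1:208473485-208473684: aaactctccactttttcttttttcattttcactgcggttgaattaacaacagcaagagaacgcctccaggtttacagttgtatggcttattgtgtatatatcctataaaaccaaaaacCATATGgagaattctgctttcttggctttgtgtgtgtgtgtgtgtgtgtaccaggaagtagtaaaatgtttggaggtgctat
AUTS2 region, intron, chr3:14106049-14106248: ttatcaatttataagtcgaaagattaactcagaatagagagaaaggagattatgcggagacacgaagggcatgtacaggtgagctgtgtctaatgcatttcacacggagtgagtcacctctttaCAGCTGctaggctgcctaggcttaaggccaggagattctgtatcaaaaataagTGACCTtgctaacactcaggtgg
FRY region, intron, chr11:8534840-8535039: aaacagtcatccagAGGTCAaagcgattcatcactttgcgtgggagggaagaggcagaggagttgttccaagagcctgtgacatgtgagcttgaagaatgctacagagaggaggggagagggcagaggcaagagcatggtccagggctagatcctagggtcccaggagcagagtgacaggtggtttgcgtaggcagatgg
Among regions that met these conditions, the NFIB and AUTS2 regions gained most from E18 to E28, and the FRY region was 1 of the 12 with the largest loss.

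The deposited values are raw counts of Tn5 cut sites per peak and barcode. Barcodes with 2000 to 30000 counts were kept (9410 to 11243 per sample of the 4), and their counts were summed. The sums reached 133037579 and 124725894 cut sites at E18 (ZZ and DZ) and 89816504 and 98654857 at E28. Peaks had been called in each sample separately, and they covered 191.2 and 167.8 Mb at E18 against 102.2 and 108.4 Mb at E28. A sum over a region therefore moves with the length called there, and a region without a peak is listed at 0 whatever its true level. Between 125 and 157 kept barcode sequences recurred in any pair of the 4 samples. Counts were summed over all cells of a pool, so fewer cells of a type and less accessibility per cell cannot be told apart.

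Overlapping peaks of the 4 samples merged into 275098 regions, of which 80529 (29.3%) had a peak in all 4 and 80525 were tested. Counts were tested in edgeR by quasi-likelihood with breed as a term. The first fit was on the counts, the second had covered length as an offset, that is per covered base. CPM are counts per 1e6 of all kept counts of the sample, while the fits scaled to the tested features, with TMM. Tested regions took 81.7% and 82.0% of kept counts at E18 (ZZ and DZ) and 90.7% and 88.2% at E28. A region was called both ways when its adjusted p was under 0.05 in the same direction in both fits. On the counts alone 12035 regions (14.9%) were higher and 10933 (13.6%) lower at E28. Called both ways were 9397 regions higher (11.7% of those tested) and 7555 lower (9.38%), and 131 regions passed in opposite directions. The same direction in both breeds was seen in 9374 of the 9397 and in 7542 of the 7555. The calls were made on these same pools and favour regions where the breeds agree, so this is no separate support. Across the tested regions, the log2 ratio of E28 to E18 in ZZ and that in DZ had a Pearson r of 0.732 and a Spearman rho of 0.798 (80129 regions with counts in all 4), as a description, since regions of a sample share its depth and peak calling.

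The called regions had a median log2 fold change of 1.99 (interquartile range 1.43 to 2.74) for those higher and -1.72 (-2.34 to -1.28) for those lower. Per covered base the medians were 1.05 and -0.97, against 0.02 over all tested regions. The count-based log2 fold change followed the log2 ratio of covered length with an r of 0.896 across regions, and the value per covered base with an r of 0.501, so length and signal moved together. Of the regions called both ways, 3527 of those higher and 826 of those lower had covered lengths within 1.5 times of each other in all 4 samples. A fit of such regions alone (30591) called 5164 higher and 4627 lower both ways. Adjusted calls on counts were lost without either E18 pool, in fits that drop the breed term and take the spread from the E28 pools. In the main fit 36146 regions had an unadjusted p under 0.05 on counts. Without E18 ZZ no region passed on counts and 5637 and 5296 passed per covered base (higher and lower). Without E18 DZ none passed on counts and 6308 and 5348 per covered base. At an unadjusted p under 0.05 on counts, 22101 and 21224 regions passed without these pools, and without E28 ZZ or E28 DZ edgeR called both ways 27425 and 21810. With 1 residual degree of freedom the smallest adjusted p on counts was 0.0154, a value that many regions shared.

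**Figure D1:**
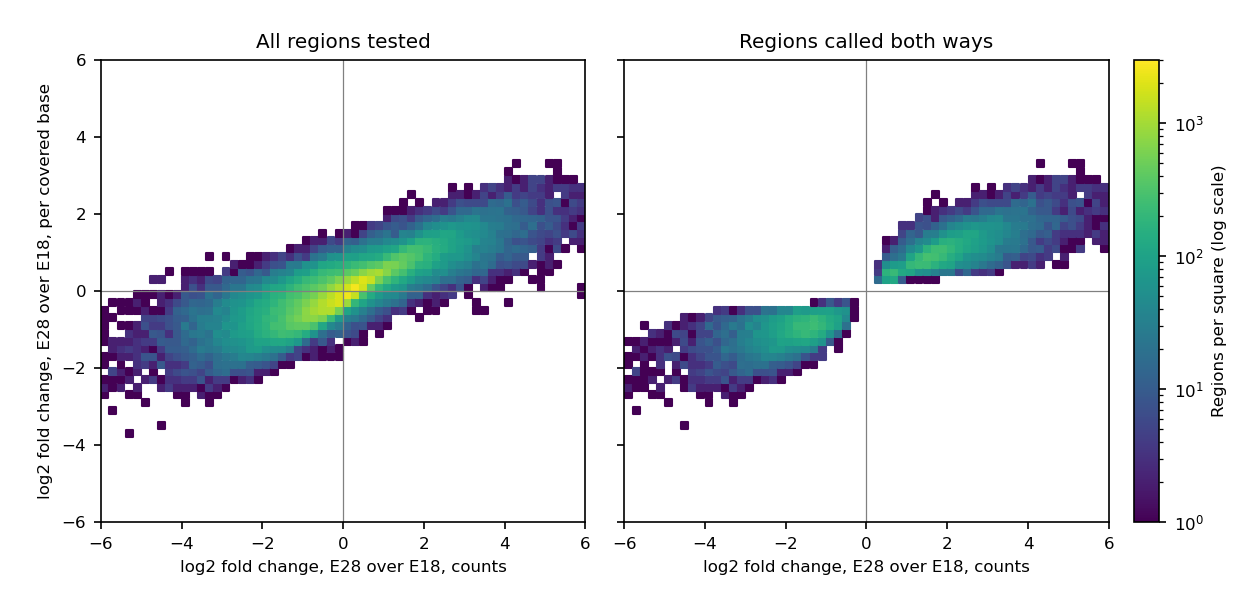
Log2 fold change of E28 over E18 on counts (x axis) and per covered base (y axis) for all 80525 tested regions (left) and the regions called both ways (right), with squares coloured by the number of regions on a log scale. The cloud follows a slope below 1, and the called regions lie in the 2 quadrants where both fits have the same sign, while 97 regions beyond 6 on an axis are not drawn.

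The regions with the largest gain, among those with similar covered length and at least 5 CPM in the higher stage, lay in introns or between genes. The first lay 288941 bp from the nearest start, that of NFIB, a gene of the nuclear factor I family of transcription factors (chr1:208472680-208474490). It held 2.41 and 2.54 CPM at E18 and 29.0 and 32.3 CPM at E28 (ZZ and DZ). The E28 pools thus stood far above the E18 pools with no overlap (as the stages did in 74.6% of all tested regions), at a log2 fold change of 3.57 ± 0.186 (SE, edgeR adjusted p = 0.0154) and of 2.77 per covered base (adjusted p = 4.25e-06). The E21 pools, at 7.38 and 9.70 CPM, lay in between. An intron of AUTS2, a chromatin-associated regulator known from neural development, went from 4.91 and 5.37 to 53.0 and 74.2 CPM (chr3:14104383-14107915). The nearest start was that of a gene without a symbol, with the region at -242209 bp from it. The log2 fold change of the AUTS2 region was 3.55 ± 0.163.

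The named gains included regions at LAMB1, CDH11 and MATN2. An intron of LAMB1, which encodes a laminin chain of basement membranes, held 2.38 and 2.85 CPM at E18 and 22.5 and 27.9 CPM at E28. A distal region 161357 bp from CDH11, a cadherin of mesenchymal cells, rose from 4.37 and 4.67 to 42.8 and 39.4 CPM. An intron of MATN2, a matrilin of the matrix, rose from 5.98 and 5.17 to 54.8 and 35.7 CPM. The log2 fold changes of these 3 regions were 3.21 ± 0.200, 3.13 ± 0.149 and 2.94 ± 0.158. A region in an intron of SPRY1, an inhibitor of FGF receptor signalling, lay 133006 bp from the nearest start of that gene. It went from 6.37 and 4.47 to 43.4 and 41.7 CPM, with a log2 fold change of 2.94 ± 0.194. The other named gains were at IMMT (mitochondrial inner membrane organisation), ARHGAP8, CPVL, FKBP9 and PLEKHG1, with 7.69-fold to 9.58-fold higher counts, and 1 region lay near a gene without a symbol.

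The largest losses under the same conditions were smaller, from 3.63-fold to 5.49-fold. An exonic region that overlaps JAK3, a kinase of cytokine receptors, fell from 31.2 and 35.1 CPM at E18 to 6.86 and 7.87 CPM at E28 (log2 fold change -2.23 ± 0.151, edgeR adjusted p = 0.0154). A distal region at -85789 bp from the start of SOX13, a SoxD transcription factor, fell from 28.7 and 35.8 to 9.07 and 5.73 CPM. The region at the start of SLC12A5, a chloride exporter of neurons, fell from 33.5 and 35.0 to 8.60 and 8.07 CPM. All 3 showed E28 pools below the E18 pools without overlap. The choice of called regions favours this, and in 74.6% of all tested regions the stages did not overlap either. A region that overlaps AGO1, which encodes an Argonaute protein of small RNA silencing, and whose nearest start is that of another gene, held 19.4 and 21.4 CPM at E18 and 4.98 and 4.93 CPM at E28. The intron of FRY shown above held 12.4 and 12.3 CPM at E18 and 3.20 and 3.43 CPM at E28. Introns of LIMCH1 and RAB11FIP5, a region at IGFALS (the acid-labile subunit that binds IGF complexes in serum) and 4 regions next to genes without a protein symbol completed the list. At E21 the FRY region held 7.26 CPM in ZZ and 13 CPM in DZ, so its DZ pool had not yet moved from the E18 level.

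**Figure D2:**
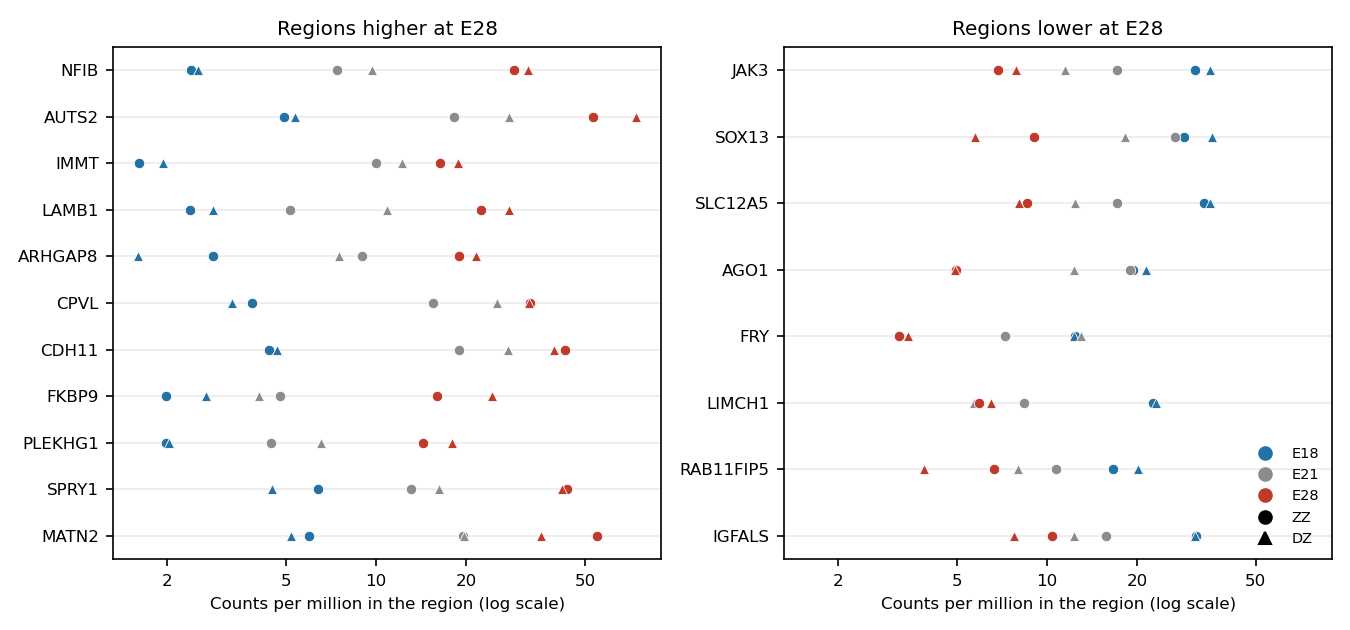
CPM (log scale) of the named regions in each sample, with circles for ZZ, triangles for DZ and colours for the stage; regions next to genes without a protein symbol are left out. E18 and E28 pools lie apart in every region shown, which the choice of called regions favours, and most E21 pools lie between them.

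E21 values were set beside all called regions. Both E21 pools lay between the stages in 5713 of the 9397 regions higher at E28 (60.8%) and in 4647 of the 7555 lower (61.5%). These regions were called for a gap between E18 and E28, which favours E21 values inside it. The share over all tested regions was not computed. The median share of the log2 change reached at E21 was 59.8% for regions higher and 38.5% for regions lower at E28. The E21 level was nearer to E28 than to E18 in 63.6% of the former and 33.3% of the latter. These shares use a pseudocount of 0.1 CPM and E21 peaks that overlap the regions, and no test of their difference was made. They rest on CPM, which move with the covered length. The E21 peaks covered 147.1 and 157.8 Mb (ZZ and DZ), less than at E18 and more than at E28. The part of covered length in these shares was not tested.

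Elements differed between gains and losses. Exonic regions made up 30.9% of all tested regions, 20.6% of those higher and 31.4% of those lower at E28. Introns held 35.8% of all tested, 41.8% of those higher and 35.1% of those lower, and distal regions 31.6%, 36.2% and 31.9%. Gains thus lay more often in introns and distal sequence than the tested regions at large, and losses had nearly their composition. The median distance to the nearest transcript start was 18628 bp for all tested regions, 33040 bp for regions higher and 17387 bp for regions lower. Within 2 kb of a start lay 20.7%, 12.7% and 17.9%, and the median GC content at the region centre was 51.2%, 46.8% and 55%. When a promoter within 2 kb upstream was counted ahead of an exon, promoters held 20.4% of all tested, 12.3% of those higher and 18.1% of those lower.

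Regions with peaks in both pools of a stage and in none of the other were more numerous at E18 (79995) than at E28 (20431), beside a covered length that was also larger at E18. They lay mostly in introns (48.2% and 48.6%) and distal sequence (38.8% and 42.8%), and only 4.44% and 2.85% lay within 2 kb of a start. They took 12.4% and 13% of the counts of the E18 pools and 5.44% and 6.89% of those of the E28 pools. No fold is given for them, since the other stage is listed at 0 for want of a called peak.

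**Figure D3:**
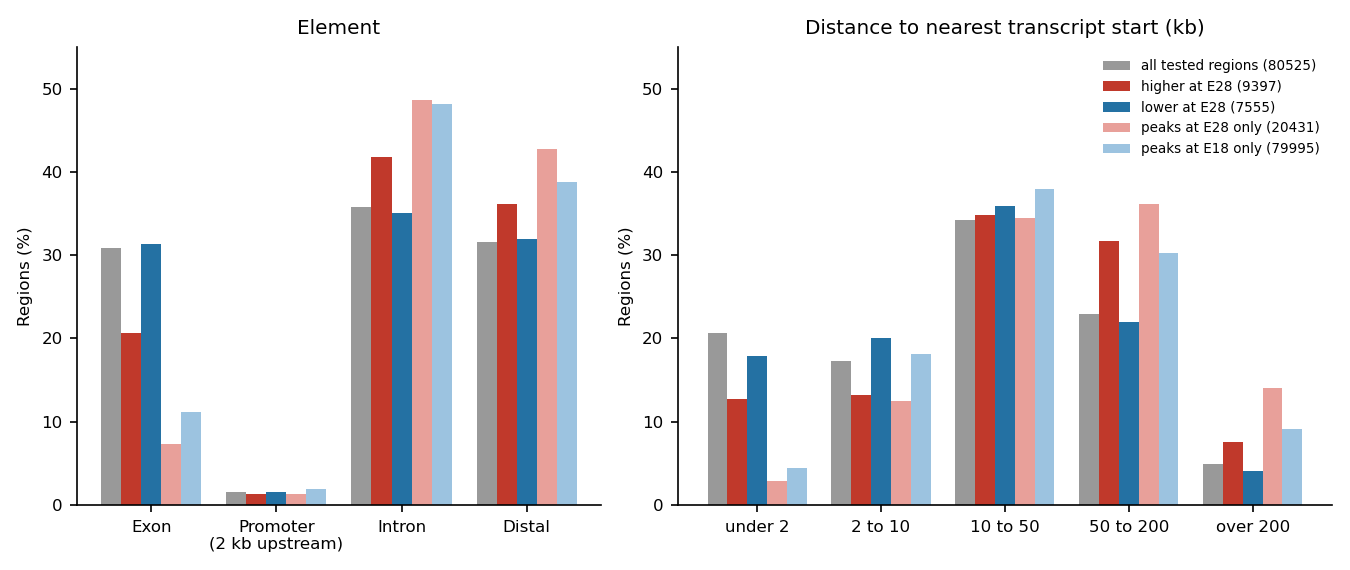
Percent of regions (y axis) by genomic element (left) and by distance to the nearest transcript start in kb (right), for all tested regions, regions called both ways and regions with peaks at a single stage, with the number of regions in the key. Regions higher at E28 sit more often over 50 kb from a start than all tested regions, and regions with peaks at a single stage rarely lie near one.

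Motifs at the centre of the regions were counted as spelled letters on either strand of a 400-base window. A match is a description of letters and not of a bound factor. The palindromic site of nuclear factor I was rare but unevenly spread: it was present in 44 of the 80525 tested regions (0.0546%), in 16 of the 9397 higher (0.170%) and in 1 of the 7555 lower at E28. The shorter letters TTGGCA of nuclear factor I were far more common and less uneven. They were present in 19.2% of all tested regions, 23.0% of those higher and 17.8% of those lower. Of the 44 regions with the palindrome, 36.4% were higher at E28, beside 11.7% of all tested regions. The sites in 4 regions of this kind are shown with 13 bases on each side, the palindrome in capitals. These regions had the largest gain near a named gene among those with covered lengths within 2 times of each other. Regions on chromosomes 8 and 18, with under 300 bp covered or with a site that overlaps an exon were left out.
ARID4A intron, chr1:187413314-187413354: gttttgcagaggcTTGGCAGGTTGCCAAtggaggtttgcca
ITGB6 intron, chr15:67102530-67102570: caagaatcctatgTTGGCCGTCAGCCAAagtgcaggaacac
HDAC9 intron, chr9:87527035-87527075: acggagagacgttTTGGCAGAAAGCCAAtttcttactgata
BRD1 distal, chr5:968856-968896: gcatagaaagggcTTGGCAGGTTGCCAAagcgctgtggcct
The ARID4A region held 2.51 and 2.43 CPM at E18 and 18.3 and 19.5 CPM at E28 (log2 fold change 2.87 ± 0.229), and the HDAC9 region, in an intron of a histone deacetylase gene of muscle and heart, 3.47 and 3.58 against 16.1 and 20.9 CPM (2.32 ± 0.238). In both, the E21 pools lay between the E18 and E28 pools (11.2 and 10.4 CPM, and 12.5 and 14.8 CPM). This order did not hold in the other regions shown. At ITGB6 the E21 DZ pool (6.25 CPM) lay above E28 ZZ (5.81 CPM). At BRD1 the E21 pools held 0 CPM in ZZ and 15.5 CPM in DZ, the latter above E28 DZ (15.3 CPM).

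The motif of CTCF, the factor that anchors chromatin loops, was scarce among changed regions. It was present in 3229 tested regions (4.01%), in 45 of those higher (0.479%) and in 174 of those lower at E28 (2.30%). Only 1.39% of the regions with the motif were higher and 5.39% lower, beside 11.7% and 9.38% of all tested regions. Of the lower regions with covered lengths within 1.5 times, 2 of those with the largest loss are shown, the motif in capitals. The same kinds of region were left out as for the nuclear factor I sites.
GPATCH8 distal, chr12:18761825-18761862: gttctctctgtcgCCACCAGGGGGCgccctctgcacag
DHRS4 distal, chr7:75271889-75271926: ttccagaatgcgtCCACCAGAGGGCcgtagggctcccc
The GPATCH8 region fell from 31.3 and 32.5 to 14.6 and 11.5 CPM, and the DHRS4 region from 3.65 and 4.02 to 1.75 and 1.65 CPM.

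Other motifs followed the direction less sharply. The E-box CATATG was present in 7.19% of tested regions, 10.3% of those higher and 5.19% of those lower. The MEF2 motif was present in 4.41%, 6.07% and 3.23%, the letters TGATTNAT of HOX and PBX pairs in 6.31%, 9.30% and 6.15%, and the E-box CAGCTG of myogenic factors in 30.3%, 34.6% and 31.7%. The E-box CAGGTG went the other way, with 29.4%, 24.7% and 30.2%. Some motifs were more frequent in the losses. AGGTCA, the nuclear receptor half-site, was present in 21.9%, 18.2% and 29.1%, and GGGCGG, the GC box of SP and KLF factors, in 27.9%, 17.2% and 34.4%. CCCNNGGGA was present in 11.2%, 8.58% and 14.4%, and AGATAAG of GATA factors in 3.72%, 3.66% and 4.77%. Intron and distal regions alone gave 8.77%, 11.4% and 6.18% for CATATG, 23.7%, 19.1% and 31.6% for AGGTCA and 17.3%, 11.9% and 25.9% for GGGCGG. GC content differed in the order of AGGTCA and GGGCGG and in the reverse order of CATATG (48.5%, 45.8% and 52.5% in intron and distal regions). Its part in these shares was not tested.

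Genes were then read through windows from 2 kb upstream to the end of the gene, each summing every peak it touches. Of 20814 windows tested, 1506 (7.24%) were higher and 1952 (9.38%) lower at E28 in both fits. The length offset was recentred by TMM normalization of the counts per covered base. Without recentring, the median log2 fold change per covered base was 0.540 for windows and 0.424 for regions, against -0.00 and 0.02 with it, and 3835 windows were higher and 372 lower, and 11761 regions higher and 4383 lower, so the split between gains and losses rests on that choice. Of 557 genes on 28 lists, 518 windows were tested, and lists are described by their counts beside these percentages. Without recentring, the lower windows numbered 2 for heart, 3 for the segmentation clock, 4 for pluripotency, 3 for neural progenitors, 5 for epithelium and kidney and 0 for endothelium, and the higher ones 14 for fibroblast and matrix, 10 for FGF and BMP, 8 for trunk and posterior HOX and 7 for cell cycle genes. Neurons and anterior HOX then had 1 lower each, with 2 and 0 higher. Hedgehog and WNT, blood and immune, neural crest and glia and retinoic acid had 0 lower each, with 1, 1, 0 and 0 higher. Few windows of the lists with most losses were of similar covered length. Covered lengths within 1.5 times in all 4 samples were found in 0 of 15 heart windows, 1 of 21 neural progenitor, 2 of 21 epithelium and kidney, 4 of 21 segmentation clock and 5 of 17 pluripotency windows, and fits of such windows alone called 0, 0, 2, 1 and 1 of them lower.

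Of 24 windows of myogenic regulators, 2 were higher (MYOG and TEAD4) and 2 lower (MEF2A and TCF21), with a median log2 fold change of 0.08 on counts against -0.01 over all windows. These shares are near those over all windows. MYOG, the factor of terminal myoblast differentiation, held 7.16 and 6.25 CPM at E18, 9.78 and 11.5 CPM at E21 and 16.8 and 23.3 CPM at E28. From E18 to E28 its log2 fold change was 1.51 ± 0.263 (edgeR adjusted p = 0.00444), and 1.27 per covered base (adjusted p = 7.60e-06). MYF5, the earliest of these factors in the myotome, held 22.6 and 23.0 CPM at E18 and 25.2 and 32.9 CPM at E28 (0.28 ± 0.161, adjusted p = 0.189). MYOD1 held 20.6 and 22.0 against 21.4 and 25 CPM (0.06 ± 0.163, adjusted p = 0.778). MYF6 held 11 and 9.56 against 8.76 and 10.3 CPM, with overlapping pools. MEF2C, a MEF2 protein, held 104.7 and 121.2 against 146.8 and 151.2 CPM, which passed on counts (adjusted p = 0.0268) but not per covered base (0.399).

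Of the 6 tested regions nearest to the start of MYOG, 4 were called higher and none lower. The region over the gene (chr9:113782863-113786127) had the same CPM as the window, with an adjusted p of 0.0254 in the edgeR fit of regions and a log2 fold change of 1.41 per covered base (adjusted p = 9.28e-05). A distal region at -4896 bp (upstream, chr9:113788720-113791696) went from 14.2 and 16.2 to 30.9 and 36.7 CPM (1.09 ± 0.130, adjusted p = 0.0163). A region 3227 bp downstream of the start rose from 0.872 and 1.13 to 3.17 and 3.06 CPM, and 1 at 20376 bp from 1.47 and 1.53 to 3.89 and 5.05 CPM. The other 2 had lower values at E28 and were not called: -0.59 ± 0.281 at 10217 bp (adjusted p = 0.179, and -0.62 per covered base, adjusted p = 0.0216) and -1.33 ± 0.412 at -14148 bp (adjusted p = 0.0769). The 250 bases before the annotated start of MYOG (minus strand) are shown because this promoter lies in the called region, with capitals on TATATTTA and CAGTTG, letters chosen after the sequence was seen. TATATTTA was present in 1.02% and CAGTTG in 8.68% of the 250-base windows before the starts of 19559 protein-coding genes, on either strand.
MYOG promoter, chr9:113785313-113785562: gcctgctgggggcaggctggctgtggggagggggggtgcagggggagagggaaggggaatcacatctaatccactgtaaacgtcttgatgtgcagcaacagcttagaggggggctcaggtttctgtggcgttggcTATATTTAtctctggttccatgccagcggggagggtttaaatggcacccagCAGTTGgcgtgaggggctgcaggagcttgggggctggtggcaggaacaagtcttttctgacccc

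Of 31 windows of muscle structure genes, 3 were higher (MYOM1, TNNT3 and NEB) and 2 lower (MYH7 and CKM), with a median of -0.23 on counts and 0.01 per covered base. On counts alone 4 were higher and 13 lower. The shares called both ways are near those over all windows, and with a sample left out they ranged from 1 to 7 windows higher and 0 to 4 lower. MYOM1, a cross-linker of the sarcomere M-band, rose from 36.3 and 36.9 to 63.8 and 106 CPM (1.11 ± 0.175, adjusted p = 0.0031). TNNT3, the troponin T of fast fibres, rose from 27.7 and 23.7 to 53.6 and 42.3 CPM. MYH7, the myosin heavy chain of slow fibres and heart, fell from 73.3 and 84.3 to 46.5 and 54.7 CPM (-0.70 ± 0.104), and CKM, the muscle creatine kinase, from 24.1 and 23.2 to 16.5 CPM in both pools. Of 16 windows of fusion and neuromuscular junction genes, CHRNA1, the acetylcholine receptor subunit of the endplate, was the only one called. It held 3.54 and 4.05 CPM at E18, 10.9 and 14.0 CPM at E21 and 26.8 and 44.4 CPM at E28 (log2 fold change 3.13 ± 0.223 on counts and 0.84 per covered base, with a covered length of 1267 and 1199 bp before and 3603 and 4770 bp after). None of the 19 windows of the myostatin and IGF pathway was called both ways.

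Of 15 heart muscle windows, 8 were lower and none higher, with a median of -0.86. MYBPC3, the cardiac myosin-binding protein, held 56.2 and 54.0 CPM at E18 and 5.47 and 2.23 CPM at E28 (-4.02 ± 0.288, adjusted p = 0.000225, and -1.61 per covered base). HAND1, a factor of heart chambers and lateral mesoderm, fell from 53.3 and 43.5 to 11 and 10.6 CPM, and TBX5, of heart and forelimb, from 58.1 and 56.6 to 20.7 and 38.3 CPM. Per covered base HAND1 and TBX5 had -1.18 and -0.39, against -2.21 and -1.08 on counts. NKX2-5, GATA4, TBX20, TNNI3 and IRX4 were the other 5. Summed over the list, windows held 617 to 752 CPM at E18 and 293 to 416 CPM at E28, and every heart window had a peak in at least 1 of the 4 samples.

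Of 21 windows of the segmentation clock and presomitic mesoderm, 10 were lower, none higher and 11 not called (median -1.09 on counts and -0.41 per covered base). CDX1, a homeobox factor of axial patterning, fell from 33.4 and 31.1 to 6.25 and 4.81 CPM (-2.61 ± 0.195, adjusted p = 0.000256, and -0.79 per covered base). WNT3A, the ligand of the tail bud, fell from 40.3 and 48.8 to 14.9 and 7.27 CPM, and RIPPLY1, a repressor at the somite boundary, from 12.7 and 12.4 to 4.18 and 3.05 CPM. Per covered base WNT3A and RIPPLY1 had -1.12 and -0.96, against -2.14 and -1.87 on counts. Of 17 windows of pluripotency and early embryo genes, 9 were lower and 1 higher. LIN28A, an RNA-binding protein that blocks let-7 maturation, fell from 97.3 and 92.7 to 17.8 and 15.0 CPM (-2.59 ± 0.120, adjusted p = 8.39e-05, and -1.18 per covered base). Its paralogue LIN28B fell from 70.8 and 81.2 to 31.6 and 19.2 CPM (-1.68 ± 0.207, and -0.45 per covered base). At E21 LIN28A held 54.6 and 39.1 CPM and LIN28B 38 and 28.6 CPM, so the fall was under way in both breeds by then. The single gain on this list was IGF2BP3, at 0.41 ± 0.105.

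Of 18 windows of dermomyotome and somite factors, 1 was higher and 1 lower, near the shares over all windows. MEOX1, which keeps somite identity, rose from 42.1 and 38.2 to 61.9 and 70.3 CPM (0.66 ± 0.133, adjusted p = 0.00729), and SIM1 fell from 101 and 99.2 to 79.6 and 83.0 CPM. PAX3 held 125.0 and 134.4 CPM at E18 and 69.3 and 79.7 CPM at E28, a fall of 0.86 on the log2 scale. In edgeR it passed on counts (adjusted p = 0.00123) but not per covered base (0.0799), while its covered length shrank from 32243 and 29607 to 12163 and 15544 bp. Of 8 tested regions in the PAX3 window 3 were called lower and 0 higher. The PAX7 window also passed on counts alone, with 167.9 and 169.8 against 127.0 and 150.8 CPM. Of its 15 tested regions 2 were called higher and 2 lower. Of 23 sclerotome and cartilage windows, 3 were lower (COMP, IHH and NKX3-2) and 1 higher (MIA, 0.42, although its promoter alone gave -1.22), and PAX1 and PAX9, which mark the sclerotome, were not called.

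In the HOX clusters count differences went with large differences of covered length. HOXB6 fell from 304 and 254 to 16 and 21.2 CPM, a log2 fold change of -3.97 on counts but -0.40 per covered base, since peaks overlapping its window spanned 55577 and 55457 bp in the somite pools but 3141 and 3285 bp in the myotome pools. HOXD3 went from -2.67 on counts to -0.27 per covered base in the same way. HOXC6 and HOXA9, with covered lengths within 1.5 times of each other, rose from 145 and 111 to 241 and 268 CPM (0.94 ± 0.140) and from 135 and 78.3 to 179 and 218 CPM (0.89 ± 0.229). Of the anterior HOX windows (groups 1 to 5), 4 of 13 were lower and none higher, and of the trunk and posterior ones (groups 6 to 13), 2 of 23 were higher and 1 lower. Without E18 ZZ and without E18 DZ, the anterior windows lower numbered 1 and 2 and the trunk and posterior windows higher 3 and 0, and none of the latter was higher without E28 DZ or with DESeq2. Neighbouring HOX windows share peaks and are not independent. None of the 10 windows of HOX partners was called. Of the 90 regions in them 15 were lower (16.7%, beside 9.38% of all tested regions) and 6 higher (6.67%, beside 11.7%).

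Nuclear factor I genes and a part of the connective tissue genes were called higher. Of 4 NFI windows, 3 were higher. NFIB rose from 115 and 123 to 235 and 230 CPM (0.91 ± 0.0929, adjusted p = 0.000678), NFIA from 228 and 223 to 370 and 382 CPM (0.68 ± 0.0831) and NFIX from 170 and 175 to 279 and 220 CPM (0.46 ± 0.108). The E21 pools of NFIB (181 and 214 CPM) were nearer to E28 than to E18. At the promoter of NFIX alone the log2 fold change was -0.10. Within the NFI windows 18 of 52 regions were higher (34.6%, beside 11.7% of all tested regions) and 3 lower (5.77%, beside 9.38%). Of 8 tendon and ligament windows 2 were higher: TNMD, a tendon membrane protein, rose from 2.50 and 3.94 to 18.2 and 15.4 CPM and THBS2 from 19.4 and 16.2 to 38 and 32.3 CPM. Per covered base TNMD had 0.45 (adjusted p = 0.0469) against 2.36 on counts, with 991 and 1071 bp covered in the somite pools and 2812 and 2493 bp in the myotome pools, and THBS2 had 0.87 against 0.93. The SCX region, named for the tendon transcription factor it holds, rose from 64.1 and 57.8 to 144 and 131 CPM. Of 27 fibroblast and matrix windows 5 were higher (COL1A1, COL3A1, LUM, FBLN5 and ELN) and 1 lower (SFRP2). COL1A1 and COL3A1, the fibrillar collagen genes, rose by 0.70 ± 0.112 and 1.06 ± 0.145 on the log2 scale. In the fibroblast and matrix windows 40 of 173 regions were higher (23.1%, beside 11.7%) and 10 lower (5.78%, beside 9.38%). The housekeeping windows, a reference list, had the same share of gains, with 6 of 26 regions higher (23.1%) and 0 lower.

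Of 25 FGF and BMP windows 4 were higher (SPRY1, BMP5, BMPR1A and BMPR1B) and 1 lower (BMP2), and BMP5 went from 41.7 and 42.7 to 89.6 and 88.2 CPM (1.02 ± 0.104), although its promoter alone gave -0.17. With promoters alone 1 window of this list was higher and 3 lower. Of 24 Hedgehog and WNT windows 5 were lower and none higher. Of the 149 regions in them 16 were higher (10.7%, beside 11.7% of all tested regions) and 27 lower (18.1%, beside 9.38%). The ligands WNT7A and WNT3 fell from 57.6 and 62.8 to 22.4 and 20.6 CPM and from 46.3 and 45.5 to 22.5 and 16.7 CPM, and the inhibitor DKK1 fell from 29.3 and 27.6 to 19.9 and 14.6 CPM. Per covered base WNT7A and WNT3 had -0.42 and -0.43, against -1.54 and -1.30 on counts. Of 13 retinoic acid windows 2 were lower, among them CRABP2, a carrier protein of retinoic acid. Of 7 FOXP and FOXO windows FOXO3 was higher and FOXP4 lower (-1.51 ± 0.111).

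Of 20 immediate early and KLF windows 3 were higher and 1 lower (FOSL1), with a median of 0.22 on counts and -0.10 per covered base. None was higher without E28 DZ, or with barcodes counted in place of cut sites. FOS, FOSB and JUN, subunits of AP-1, rose from 77 and 80.0 to 135 and 225 CPM, from 81.8 and 82.8 to 150 and 203 CPM and from 90.0 and 92.4 to 170 and 207 CPM, with 0.41, 0.32 and 0.39 per covered base against 1.09, 1.03 and 0.99 on counts. EGR1 rose on counts (0.88 ± 0.128) and fell per covered base (-0.39, adjusted p = 0.0027), so it was not called. RHOB, a small GTPase, moved by 0.05 on counts and by 0.88 per covered base, and the 1 tested region in its window was called higher (log2 fold change 0.47). Of 23 cell cycle windows 3 were higher (CCNE1, CDKN1C and MCM3) and none lower, and MKI67 held 27.7 to 28.8 CPM at E18 and 27.8 to 28.1 CPM at E28. Of 17 housekeeping windows 3 were higher (RPLP0, POLR2A and PPIA) and none lower, so the share of gains on this reference list was also above the 7.24% of all windows.

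Lists of other cell types were read in the same way. Of 21 neural progenitor windows 13 were lower and none higher (median -0.82 on counts and -0.53 per covered base). HES5, a Notch target of neural stem cells, fell from 77.5 CPM in both pools to 7.30 and 6.46 CPM (-3.55 ± 0.140, adjusted p = 8.39e-05, and -1.71 per covered base), and its E21 pools still held 82.4 and 79.2 CPM. Of 21 epithelium and kidney windows 13 were lower and none higher (median -1.05 and -0.55). KRT18 and KRT8, keratins of simple epithelia, fell from 38.2 and 39.3 to 3.8 and 1.05 CPM and from 49.8 and 44.2 to 5.68 and 5.10 CPM, and at E21 they already held 9.72 and 8.56 CPM and 9.76 and 12 CPM. Per covered base KRT18 and KRT8 had -1.99 and -1.13, against -4.28 and -3.18 on counts. CLDN6, a tight junction protein of embryonic epithelia, fell from 81.1 and 83.4 to 18.3 and 19.9 CPM while its E21 pools held 62.5 and 71.4 CPM.

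Of 30 neuron windows 5 were lower, among them NEUROG1, NEUROG2 and GAD1, and 1 higher (GAP43, 0.52, with -0.19 at its promoter alone). Of 14 neural crest and glia windows 3 were lower, among them ZEB2 and FOXD3. Of 21 endothelium windows 5 were lower and 1 higher (EMCN), with CDH5, the cadherin of endothelial junctions, at 25.9 and 24.7 CPM against 5.81 and 7.19 CPM (-2.02 on counts and -0.58 per covered base). Of the 106 regions in the endothelium windows 13 were higher (12.3%) and 11 lower (10.4%), near the 11.7% and 9.38% of all tested regions. Only 2 endothelium windows had covered lengths within 1.5 times, and the fit of such windows alone called 2 higher and 0 lower. Of 13 blood and immune windows 4 were lower and RUNX1 higher. KLF1, the erythroid factor, was among those lower and rests on 4 counts in E28 DZ. The losses were not seen in single regions: of 32 in these windows 1 was lower (3.12%, beside 9.38% of all tested regions) and 3 higher (9.38%, beside 11.7%). GATA1, TYROBP and C1QB had no peak in any of the 4 samples. The summed windows held 1040 and 1050 CPM at E18 and 608 and 655 CPM at E28 for neural progenitors, 1130 and 1060 against 538 and 542 CPM for epithelium and kidney, and 1150 and 1140 against 942 and 885 CPM for endothelium. Of the single markers, KDR (-0.23) passed in neither fit, and ELAVL3 (-0.96) and SOX10 (-0.78) passed on counts but not per covered base. The part of these markers in the other differences was not tested.

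**Figure D4:**
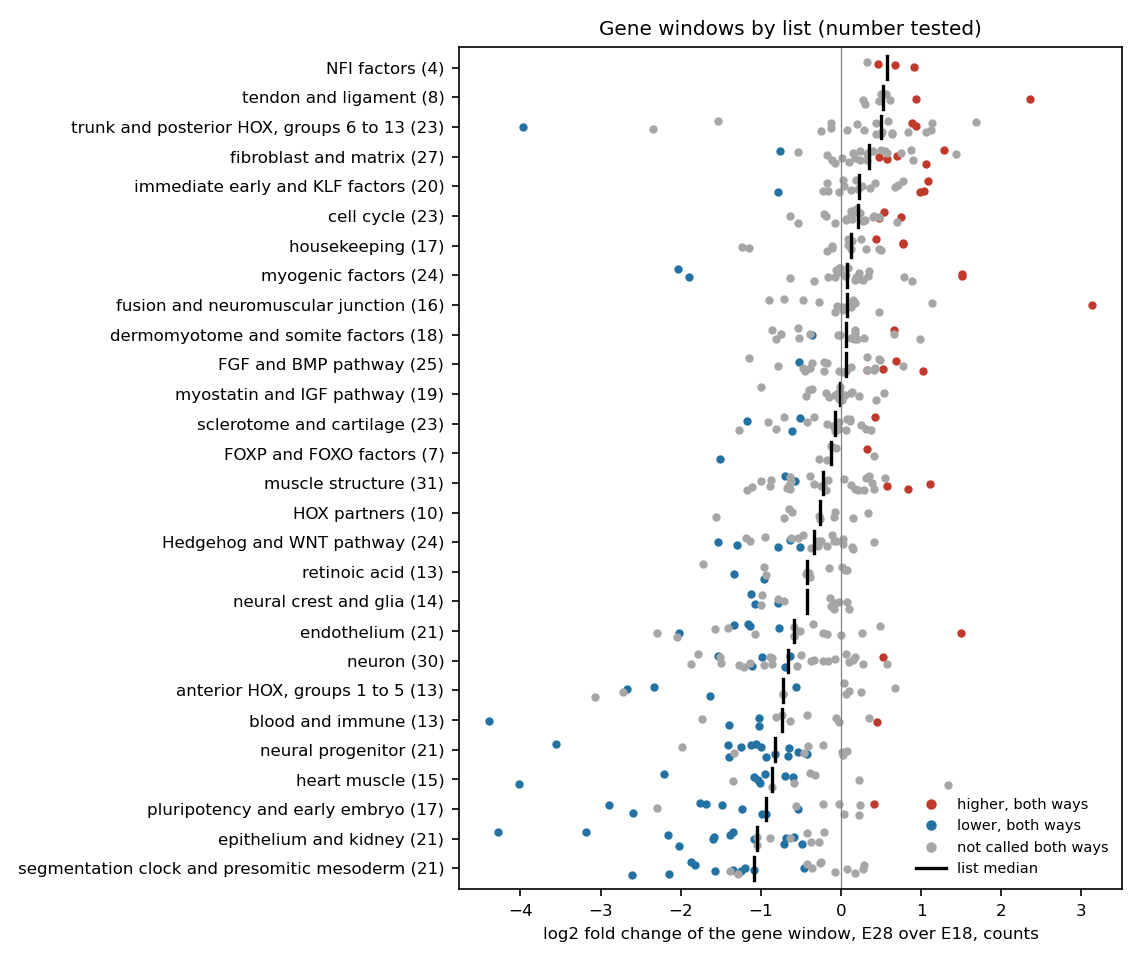
Log2 fold change of E28 over E18 on counts (x axis) for each tested gene window, by list (y axis, number tested in brackets), in red or blue where called both ways and grey otherwise, with a black bar at the list median. Medians run from -1.09 for the segmentation clock to 0.57 for NFI factors.

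Among the markers of the labelled tissue, MYOG was higher at E28, while DES (20.3 and 19.3 against 17.7 and 25.3 CPM) and ACTC1 (20.4 and 22.9 against 20.3 and 38.5 CPM), both of differentiated muscle, had overlapping pools. The somite markers TCF15, PAX1 and PAX9 had peaks in all 4 samples. The lists named next had fewer calls without an E18 pool. Without E18 ZZ and without E18 DZ, the windows lower at E28 numbered 7 and 10 for epithelium and kidney, 7 and 4 for neural progenitors, 6 and 7 for the segmentation clock, 5 and 5 for pluripotency and 4 and 5 for heart. The gains numbered 1 and 2 for NFI factors, 2 and 0 for fibroblast and matrix, 0 and 0 for FGF and BMP 1 and 0 for tendon and ligament and 1 and 1 for myogenic factors. No window was called for Hedgehog and WNT, cell cycle, neural crest and glia or blood and immune genes in either case, and endothelium had 1 and 0 lower and 0 and 1 higher. Over all lists and genes, 906 and 908 windows were then called both ways.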

How the data were processed

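Single-cell ATAC-seq was measured in 6 samples, 1 per stage and breed, of which 4 were compared. The authors aligned reads to Sscrofa11.1 with Cell Ranger ATAC 1.2.0, called peaks and cells per sample, and deposited raw counts of Tn5 cut sites per peak and barcode. Seurat 3.1.1 and Signac 0.2.2 are named in the submitters' processing notes and play no part in these counts.

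Counts of barcodes with 2000 to 30000 counts were summed per peak, without a doublet caller. The sums per sample of the comparison ranged from 89816504 to 133037579 cut sites, and single regions hold far fewer (320 and 317 at E18 in the NFIB region), where counting error adds to the spread between pools. Peaks overlapping by at least 1 bp were merged, and regions or gene windows (RefSeq annotation, gene body plus 2 kb) with a peak in all 4 samples were tested with edgeR 4.0.16 (R 4.3.3), quasi-likelihood F test, TMM, filterByExpr and terms for stage and breed, with and without the log of covered length as offset, recentred by TMM on counts per covered base. Adjusted p-values are Benjamini-Hochberg, and SE was derived from the fold change and F. The fit on counts was run on simulated data with the same dispersion for all regions and no breed effect. The fit per covered base and the calls both ways were not simulated. Correlations and tables used Python 3.11.15.

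Named regions were the 12 highest and 12 lowest log2 fold changes among those called both ways with at least 300 bp covered, covered length within 1.5 times, at least 5 CPM in the higher stage, the same direction in both breeds and 1 region per gene. Up to 3 gains and 3 losses were named per gene list, besides 15 genes always named. A few genes that this rule names are not reported here. The members, lists and motifs were chosen with earlier results of these data known. Elements were assigned in the order exon, promoter, intron, distal.

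Alternatives were DESeq2 1.42.0, its size factors, no filter, 4000 to 60000 counts, barcodes with a count, peaks open in at least 1% of barcodes, no breed term, all 6 samples, each sample left out, no recentring, and other windows. Limits on covered length for windows and for calls both ways were added after seeing the data.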

Additional observations from a re-analysis of the deposited data

Results flagged for a closer look

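At 2 always named windows the breeds moved in opposite directions from E18 to E28, and with 1 pool per stage and breed the difference was not tested. At MYF6 the log2 ratio of E28 to E18 was -0.33 in ZZ and 0.11 in DZ. At MKI67 it was -0.05 in ZZ and 0.02 in DZ.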

How the results depend on the processing

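Leaving out a sample, with the breed term dropped, moved the number of regions called on counts between 0 and 40968 and of those called both ways between 0 and 27425 (main values 22968 and 16952), with the 0 for each E18 pool (35707 on counts without E28 DZ). Windows called both ways then ranged from 906 to 5714 (908 without E18 DZ; main value 3458). A lone pool is assumed to vary like the pools of the other stage. DESeq2 called 43224 regions on counts. Restricted to covered lengths within 1.5 times, 11656 regions were called on counts, 9791 both ways, and 1736 windows both ways, with fewer features tested. No paired analysis beyond the breed term was possible with 1 pool per stage and breed. The other alternatives gave totals within 1.5 times of the main ones for these counts, but the 2 directions moved further. Called both ways, DESeq2 had 12590 regions higher and 12461 lower, against 9397 and 7555. Its windows were 2418 higher and 2634 lower, against 1506 and 1952. Peaks open in at least 1% of barcodes gave 971 windows higher and 1464 lower.

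With promoters ahead of exons, exons held 12.2% of all tested regions, 9.68% of those higher and 14.9% of those lower, and promoters 20.4%, 12.3% and 18.1%, by construction. In 200 bases, the share in regions higher at E28 relative to all tested was 1.59 for CATATG, 1.55 for MEF2, 1.21 for CAGCTG, 0.779 for AGGTCA and 0.583 for GGGCGG, and that in regions lower was 1.39 for AGGTCA. Counting promoters alone turned 4 named windows around on counts: MIA (-1.22), NFIX (-0.10), GAP43 (-0.19) and BMP5 (-0.17). The cause was not tested. The 24 named regions kept their direction under every alternative that gave them a value, and lost their call without E18 ZZ or E18 DZ. Of the values of named windows under the alternatives, 287 lost the call and 3 gained one.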

Other observations

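Chromosome X had a smaller share of regions lower at E28 than the autosomes. Of its 1835 tested regions 87 were lower (4.74%) and 187 higher (10.2%), against 9.38% and 11.7% over all tested regions, while the autosomes ranged from 7.10% to 10.7% lower and from 9.78% to 14.8% higher. The sex of the pooled embryos was not used here.

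AGGTCA was most frequent in regions with peaks at E18 alone (35.4%, against 16.3% of regions with peaks at E28 alone and 21.9% of all tested). The letters AGATAAG of GATA factors were present in 7.33% and 3.41% of these regions, against 3.72% of all tested. The nuclear factor I palindrome was present in 0.0275% of regions with peaks at E18 alone and 0.264% of those at E28 alone.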
